A study of Mus musculus with 2 samples.

Results

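The expression of 10 genes of the Hippo pathway was compared between cultured mouse retinal progenitor cells and mouse retina. The genes were Yap1, Wwtr1, Tead1, Tead2, Tead4, Ccn1, Ccn2, Ankrd1, Amotl2 and Ajuba. They were chosen by name, as genes of YAP, of TAZ, of TEAD factors and of their targets, and all 10 were found among the 31253 genes to which transcript values could be assigned. One library was made from mouse neural retinal progenitor cells (mNRPCs) of the strain C57BL/6 at passage 24, 1 culture that the study derived from the neural retina of adult mice and grew on Matrigel in a defined medium with bFGF and CHIR99021, which blocks the kinase GSK3. The other library was made from C57BL/6 retina tissue, whose age the labels do not give. Each group had 1 library, so the differences below have no replicate check and carry no p-value. Cell type, passage and culture conditions cannot be told apart.

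Values were FPKM, fragment numbers scaled to transcript length and to library size, so that genes can be compared with each other within a library. The depth was estimated at 6.69e+06 fragments for mNRPCs and 5.08e+06 for retina. The 95% counting intervals below come from fragment numbers estimated with these depths and cover counting error only. FPKM values summed to 1.43 times as much in mNRPCs as in retina, so ratios between the libraries depend on whether both are rescaled to a common sum. Of 8 progenitor marker genes, 6 were counted as at least 2-fold higher in mNRPCs, among them Sox2, Nes and Ccnd1, while Pax6 (123 against 101 FPKM) and Six3 (39.7 against 33.2 FPKM) were not. Of all genes compared, 24.5% were counted as higher and 30.0% as lower. All 8 rod marker genes were lower in mNRPCs, with a summed level of 7.71 FPKM against 17176 FPKM in retina.

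YAP, encoded by Yap1, and its paralog TAZ, encoded by Wwtr1, are transcriptional co-activators that do not bind DNA by themselves. When the kinases MST1 and MST2 (Stk4 and Stk3) and LATS1 and LATS2 are active, YAP and TAZ are phosphorylated and held in the cytoplasm or degraded. Otherwise they enter the nucleus, bind TEAD factors and switch on genes such as Ccn1, Ccn2 and Ankrd1. In the eye this pathway is known for its part in progenitor proliferation and pigment epithelium fate, and in the mature retina YAP is best known in Müller glia. Its activity is set largely by where the proteins are in the cell, which RNA levels do not measure.

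TEAD factors recognise the short sequence GGAATG, whose reverse complement is CATTCC. The 250 bases before the start site of each gene were read from RefSeq promoter sequences of the build GRCm38.p6, which held an entry for 7 of the 10 genes. GGAATG, on either strand, was found in 6 of these 7 genes, namely Yap1, Wwtr1, Ccn1, Ankrd1, Amotl2 and Ajuba, and not in the window of Tead2. Over all genes with an entry, 14.4% had a match in at least 1 of their windows, and over all 32851 windows 12.6% did. The AP-1 sequence TGANTCA, which often lies near TEAD sites in enhancers, was in 0 of the 7 genes, against 7.82% of all genes and 6.75% of all windows. These letter matches describe the windows and are no measure of binding. The windows of 3 target genes, Ccn1, Ankrd1 and Ajuba, are shown because these were counted as higher in mNRPCs, so they were picked by level. The target Amotl2 was not counted as higher, and Ccn2, Tead1 and Tead4 had no entry. Each is printed 5′ to 3′ on the strand of its gene, the minus strand for all 3, up to the last base before the start site, with matches to either orientation of GGAATG in capitals.
Ccn1, chr3:145649986-145650235: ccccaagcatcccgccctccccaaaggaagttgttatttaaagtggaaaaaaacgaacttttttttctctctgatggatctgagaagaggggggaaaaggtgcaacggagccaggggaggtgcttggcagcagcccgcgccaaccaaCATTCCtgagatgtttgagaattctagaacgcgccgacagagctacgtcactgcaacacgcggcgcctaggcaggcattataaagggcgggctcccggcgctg
Ankrd1, chr19:36119845-36120094: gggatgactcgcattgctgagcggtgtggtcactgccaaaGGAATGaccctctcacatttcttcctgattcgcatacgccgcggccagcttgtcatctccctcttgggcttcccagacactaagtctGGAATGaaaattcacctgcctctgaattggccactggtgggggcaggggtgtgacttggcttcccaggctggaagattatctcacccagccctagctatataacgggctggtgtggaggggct
Ajuba, chr14:54577662-54577911: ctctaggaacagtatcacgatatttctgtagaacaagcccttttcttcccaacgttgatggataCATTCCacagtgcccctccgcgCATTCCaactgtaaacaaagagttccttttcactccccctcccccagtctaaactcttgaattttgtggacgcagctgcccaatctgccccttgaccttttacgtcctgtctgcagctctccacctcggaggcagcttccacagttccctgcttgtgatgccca

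The match in Ccn1 began 103 bases before the start site. Ankrd1 had a match at 210 and another at 123 bases before it, and Ajuba at 186 and 164. In Yap1 the match began 141 bases before the start site and in Amotl2 65 bases before it. The windows of Yap1 and Amotl2, and the Wwtr1 window with its match at 170 bases, belong to start sites inside the gene intervals given below. These windows therefore overlap the annotated genes. Both start sites of Wwtr1, 1 at 170 and 1 at 136 bases from the match, shared the same match.

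Most of the 10 genes were higher in mNRPCs. For each gene, the log2 ratio of (mNRPC FPKM + 1) to (retina FPKM + 1) was taken, and a ratio of at least 1 in size was counted as higher or lower. Of the 10 genes 8 were counted as higher, 0 as lower and 2 lay between. Among the 13780 genes that reached 1 FPKM in either library, 24.5% were counted as higher and 30.0% as lower. Of the genes past the threshold in either direction, 44.9% were higher as deposited and 30.2% when both libraries were set to the same sum. The median log2 ratio was 2.14 for the 10 genes and −0.12 for all genes compared. One of the 8, Tead4, sat at the threshold and is described with its family. In bulk RNA, fewer cells of a type and less RNA per cell cannot be told apart.

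**Figure D1:**
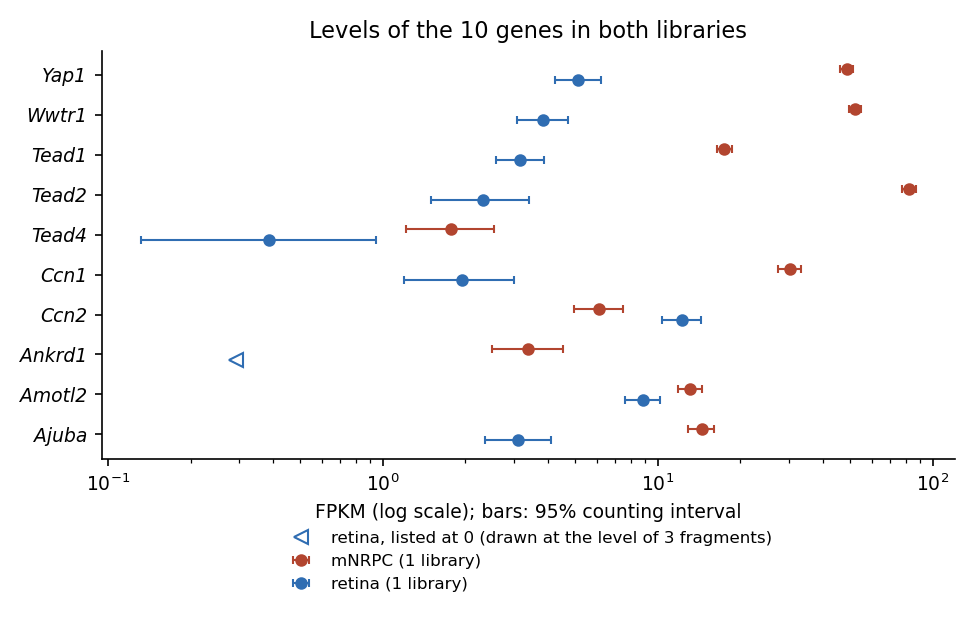
FPKM of the 10 genes (log axis) in the mNRPC library (red) and the retina library (blue), with 95% counting intervals as bars. Of the 9 genes with a value in both libraries, mNRPCs are higher for 8, and Ccn2 is higher in retina. How often such intervals are apart over all genes was not counted. The open triangle marks Ankrd1, listed at 0 in retina and drawn at the level of 3 fragments (0.292 FPKM).

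The genes of both co-activators were far higher in mNRPCs. Yap1 (chr9:7931999-8004638, GRCm38) was at 48.7 FPKM in mNRPCs (95% counting interval 46.1 to 51.3) and at 5.14 FPKM in retina (4.24 to 6.23). This was a 9.46-fold higher level in mNRPCs (counting interval 7.78 to 11.6) and a log2 ratio of 3.02 with a counting error of 0.12. The log2 ratio was 2.30 with the highest transcript row of Yap1 alone and 2.63 at equal library sums, both outside the 95% counting error. Wwtr1 (chr3:57455644-57575910) was at 52.1 FPKM in mNRPCs (49.7 to 54.8) and at 3.82 FPKM in retina (3.09 to 4.71), a 13.7-fold higher level (11.1 to 17.1) and a log2 ratio of 3.46. Their rank within the library differed as well. Among genes of at least 1 FPKM in the same library, Yap1 stood above 28.6% in retina and 83.8% in mNRPCs, and Wwtr1 above 21.8% and 84.8%.

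The balance of the co-activator genes was near even in both libraries. The level of Wwtr1 was 1.07 times that of Yap1 in mNRPCs and 0.742 times in retina. Of their summed FPKM, Yap1 held 48.3% in mNRPCs (46.5 to 50.1) and 57.4% in retina (50.1 to 64.3), and these counting intervals meet at 50.1%. The sum itself was 100.8 FPKM in mNRPCs and 8.96 FPKM in retina, 11.3 times as high in mNRPCs.

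Yap1 values were spread over 8 transcript rows, 2 of them curated, and all 8 had a higher FPKM in mNRPCs. The curated rows did not keep the same balance. The curated transcript of 4171 bases had 18.9 FPKM in mNRPCs against 3.04 in retina, and that of 4115 bases had 16.6 against 0.856. The longer one held 38.9% of Yap1 in mNRPCs and 59.2% in retina. Of Wwtr1, 91.1% in mNRPCs and 84.6% in retina was on the transcript of 4697 bases. The division of reads among overlapping transcripts is an estimate of the program used by the authors, so these shares are less certain than the sums.

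TEAD genes encode the DNA-binding partners of YAP and TAZ, and the 4 TEAD factors recognise the same sequence. Tead2 is known for its expression in neural progenitors of the embryo. Tead2 (chr7:45215792-45233468) was at 82.1 FPKM in mNRPCs (77.5 to 87.0) and at 2.31 FPKM in retina, where the counting interval reached up to 3.41 FPKM. This 35.6-fold higher level (24.0 to 55.2) and log2 ratio of 4.65 were the largest among the 10 genes, leaving out Ankrd1, for which no fold could be given. Of all genes compared, 1.47% had a larger log2 ratio. Nearly all of it in mNRPCs, 95.4%, was on 1 of its 3 transcript rows, at 78.3 FPKM against 1.68 in retina.

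Tead1 (chr7:112679356-112906784), a broadly expressed member, was at 17.4 FPKM in mNRPCs (16.4 to 18.6) and at 3.17 FPKM in retina (2.59 to 3.86), 5.51-fold higher (4.49 to 6.83) and with a log2 ratio of 2.15. Its 3 transcript rows were each higher in mNRPCs, but their order differed between the libraries. The transcript of 9480 bases held 72.8% of Tead1 in mNRPCs and 34.9% in retina, where that of 3047 bases held 50.2%. Tead4 (chr6:128227143-128300813), best known from the trophectoderm and from muscle, was the lowest of the family in both libraries. It was at 1.77 FPKM in mNRPCs (1.21 to 2.53) and at 0.385 FPKM in retina (0.132 to 0.946). These levels rest on about 30.8 and 4.76 fragments. Its 4.60-fold difference had a wide counting interval, from 1.77 to 15.1. Its log2 ratio equalled the threshold of 1 to 2 decimals, with a counting error of 0.25, and it was under the threshold with trimmed mean scaling (0.94), with upper quartile scaling (0.94) or with the highest transcript row alone (0.81).

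Tead3, which was not on the list of 10, completes the family and was not higher in mNRPCs. It was at 7.34 FPKM in mNRPCs and at 9.50 FPKM in retina, a log2 ratio of −0.33 with a counting error of 0.16, and none of its 3 transcript rows was higher in mNRPCs. The composition of the family was therefore unlike in the libraries. In mNRPCs Tead2 held 75.6% of the summed TEAD FPKM (counting interval 73.7 to 77.3), Tead1 16.1%, Tead3 6.76% and Tead4 1.63%. In retina Tead3 held 61.9% (55.5 to 67.8), Tead1 20.6%, Tead2 15.0% and Tead4 2.51%. The level of Tead2 was 11.2 times that of Tead3 in mNRPCs and 0.243 times in retina. Such shares within a library do not depend on the scaling between libraries. The family sum was 108.7 FPKM in mNRPCs and 15.4 in retina, 7.08 times as high in mNRPCs.

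**Figure D2:**
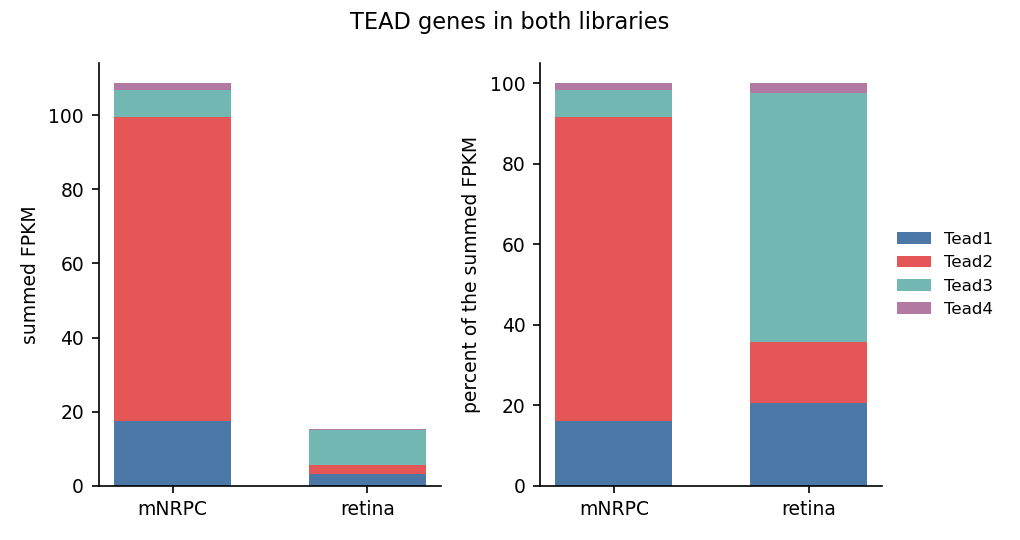
Summed FPKM of Tead1, Tead2, Tead3 and Tead4 (left) and the percent of that sum held by each gene (right) in the mNRPC and retina libraries. Tead2 fills 75.6% of the mNRPC bar and Tead3 fills 61.9% of the retina bar, while Tead4 is a thin band in both.

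The target genes were then compared, since they are commonly used as a readout of YAP and TAZ. Ccn1 (chr3:145646971-145649985), formerly Cyr61, encodes a secreted matricellular protein. It was at 30.2 FPKM in mNRPCs (27.4 to 33.3) and at 1.94 FPKM in retina (1.19 to 3.01), a 15.6-fold higher level (9.95 to 25.8) and a log2 ratio of 3.41 with a counting error of 0.22. Ankrd1 (chr19:36111965-36119844), which encodes an ankyrin repeat protein that is abundant in heart and muscle under stress, was at 3.38 FPKM in mNRPCs (2.49 to 4.54), an estimated 45.6 fragments. It was listed at 0 in retina, where 3 fragments would be 0.292 FPKM. A listed 0 can also be a failed estimate, so no fold is given for Ankrd1, and its log2 ratio of 2.13 depends on the constant of 1 that was added.

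Ccn2 (chr10:24595442-24598683), formerly Ctgf, encodes a relative of CCN1 and is among the most used targets of YAP. Its level went the other way. Ccn2 was at 6.14 FPKM in mNRPCs (4.96 to 7.45) and at 12.2 FPKM in retina (10.4 to 14.4), 1.99 times as high in retina (counting interval 1.53 to 2.60). The log2 ratio was −0.89 with a counting error of 0.17. It lay inside the threshold as deposited. It was at −1.42 once both libraries were set to the same sum, and just past the threshold with upper quartile scaling. The order of the 2 CCN genes was reversed between the libraries. Ccn1 was at 4.91 times the level of Ccn2 in mNRPCs, and Ccn2 at 6.31 times the level of Ccn1 in retina.

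Vascular and glial cells are known sources of CCN2, and their markers were read beside it. Of 8 endothelial genes 6 were compared, with 5 counted as lower and 0 as higher in mNRPCs, beside 30.0% lower and 24.5% higher among all genes. The summed level of the 8 genes was 51.2 FPKM in retina and 2.72 FPKM in mNRPCs. Of these, Cdh5, Cldn5, Tie1 and Esam were listed at 0 in mNRPCs. The 8 pericyte and smooth muscle genes summed to 17.8 FPKM in retina and 14.6 FPKM in mNRPCs, with 5 of them, among them Rgs5 and Myh11, listed at 0 in mNRPCs and none in retina. Of the 4 of them that were compared, 2 were counted as lower and 2 as higher in mNRPCs, beside 30.0% lower and 24.5% higher among all genes. The higher genes were Pdgfrb (4.49 against 1.24 FPKM) and Acta2 (10.1 against 4.39 FPKM), which made up nearly all of the mNRPC sum. All 8 Müller glia genes were lower in mNRPCs, beside 30.0% of all genes, with a sum of 1416 FPKM in retina and 49.9 FPKM in mNRPCs. All 3 astrocyte genes compared were lower as well (sums 14.5 and 0.107 FPKM), and the 1 microglia gene compared lay between. Pigment epithelium genes were also read, and all 5 compared were lower in mNRPCs, with a sum of 91.2 FPKM in retina and 0.207 FPKM in mNRPCs. The part of these cells in the level of Ccn2 was not tested.

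Amotl2 and Ajuba are both targets and regulators of the pathway. Amotl2 (chr9:102717091-102733418) encodes a junction protein of the angiomotin family that binds YAP, and its level differed least between the libraries in relative terms. It was at 13.1 FPKM in mNRPCs (11.8 to 14.5) and at 8.83 FPKM in retina (7.63 to 10.2), 1.49-fold higher (1.25 to 1.78), with a log2 ratio of 0.52 that dropped to 0.06 after rescaling to a common sum. Of its 4 transcript rows 3 were higher in mNRPCs, and a predicted one was lower, at 1.61 against 2.19 FPKM. Ajuba (chr14:54567469-54577661) encodes a LIM protein that restrains LATS kinases. It was at 14.4 FPKM in mNRPCs (12.9 to 16.1) and at 3.11 FPKM in retina (2.35 to 4.08), 4.64-fold higher (3.47 to 6.31) and with a log2 ratio of 1.91.

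**Figure D3:**
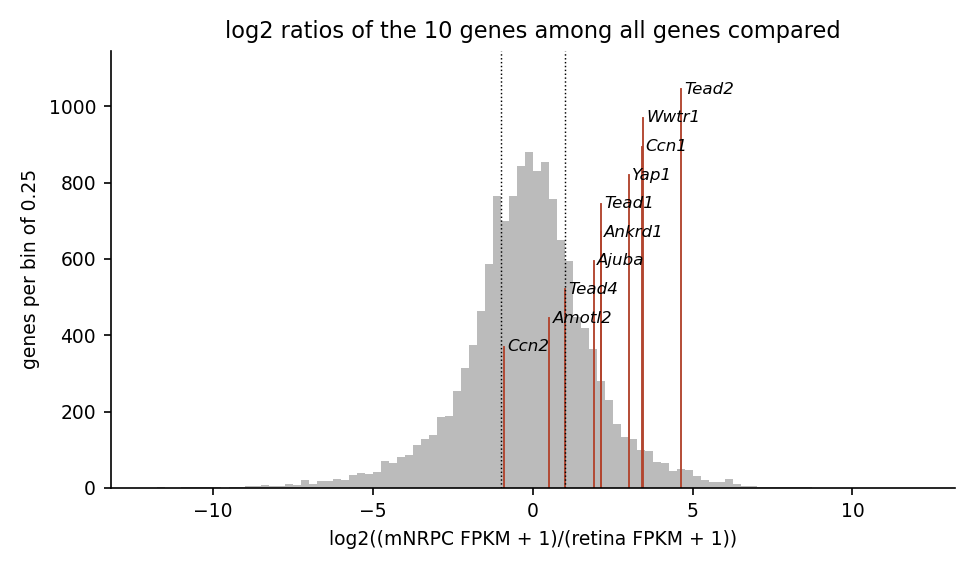
Histogram of log2((mNRPC FPKM + 1)/(retina FPKM + 1)) over the 13780 genes compared (grey, genes per bin), with the 10 genes as red lines whose heights serve the labels alone and dotted lines at −1 and 1. Tead2 stands farthest to the right at 4.65, Ccn2 at −0.89 is the one gene below 0, and Tead4 lies on the threshold.

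The order of the 10 genes differed between the libraries. In mNRPCs it ran from Tead2 (82.1 FPKM) through Wwtr1 (52.1), Yap1 (48.7), Ccn1 (30.2), Tead1 (17.4), Ajuba (14.4), Amotl2 (13.1), Ccn2 (6.14) and Ankrd1 (3.38) to Tead4 (1.77). Counting intervals of neighbours overlapped for Wwtr1 with Yap1, for Ajuba with Amotl2 and for Ankrd1 with Tead4. In retina the order began with Ccn2 (12.2 FPKM) and Amotl2 (8.83), which were followed by Yap1 (5.14), Wwtr1 (3.82), Tead1 (3.17), Ajuba (3.11), Tead2 (2.31), Ccn1 (1.94), Tead4 (0.385) and Ankrd1 (listed at 0). From Yap1 to Ccn1 in retina each interval overlapped that of the next gene. All 10 genes reached 1 FPKM in mNRPCs and 8 did in retina, beside 11076 and 12639 of all 31253 genes.

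The wider pathway was described with 5 lists of genes that were not picked for how they moved, although earlier results of these data were known when they were written. The first holds the core kinases and their adaptors. Of 7 genes, 3 were counted as higher, 0 as lower and 4 lay between, with a median log2 ratio of 0.48, beside 24.5% higher and 30.0% lower among all genes. The median was 0.039 at equal library sums and 0.17 with accessions matched by version. Values are given here with mNRPCs first. Stk3, the gene of MST2, had 23.3 against 3.55 FPKM (log2 ratio 2.42), while Stk4, the gene of MST1, had 10.1 against 7.36 FPKM (0.41). Sav1, an MST adaptor, was at 44.4 and 16.1 FPKM (1.41), and Mob1a, a LATS co-activator, at 58.4 and 20.1 FPKM. The log2 ratio of its paralog Mob1b was −0.23. The kinases that phosphorylate YAP and TAZ were between the thresholds, with Lats1 at 18.1 FPKM in each library and Lats2, itself a YAP target, at 7.86 and 5.35 FPKM (0.48). Rescaling to a common sum left 2 of the 7 genes higher, beside 18.4% of all genes.

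Of 16 upstream regulators and proteins that bind YAP or TAZ, 6 were counted as higher, 4 as lower and 6 lay between. Their median log2 ratio was −0.16, beside −0.12 for all genes compared, of which 24.5% were higher and 30.0% lower. The sign of this median depended on the transcript rows used: it was 0.42 with curated rows alone, 0.48 with the highest row of each gene and 0.86 with accessions matched by version. The angiomotin genes Amot (13.2 against 0.868 FPKM, log2 ratio 2.92) and Amotl1 (18.8 against 4.10 FPKM) were past the threshold, which their relative Amotl2 (log2 ratio 0.52) was not. Frmd6, a FERM domain gene, was at 31.2 and 3.19 FPKM (2.94). Ptpn14, a phosphatase that binds YAP and is also a YAP target, was at 7.05 and 0.574 FPKM (2.35). Going the other way, the kinase gene Taok3 was at 8.69 and 41.6 FPKM (−2.13), and Nf2, the gene of merlin, at 9.56 and 19.9 FPKM (−0.99), just inside the threshold. Wtip, which like Ajuba encodes a LIM protein, had 3.31 FPKM in retina and a listed 0 in mNRPCs. The number of lower genes was 8 at equal library sums, where 42.4% of all genes compared were lower. It was 6 with trimmed mean or upper quartile scaling, where the shares of all genes were 32.0% and 32.1%.

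Of 5 partners of TEAD factors, 3 reached 1 FPKM, with 2 counted as higher, 0 as lower and a median log2 ratio of 1.12, beside 24.5% higher and 30.0% lower among all genes. Besides Tead3 these were Vgll4, a repressor of TEAD activity, with 18.6 against 7.99 FPKM (log2 ratio 1.12), and Vgll3, with 14.5 against 0.0772 FPKM. The retina value of Vgll3 rests on an estimated 2.75 fragments, with a counting interval from 0.0174 to 0.246 FPKM, so no fold is given. Vgll1 and Vgll2 were listed at 0 in both libraries. Vgll4 was under the threshold after rescaling to a common sum, which left 1 of these 3 genes higher, beside 18.4% of all genes. The median of this list was 0.20 with curated rows alone and reversed to −0.33 with accessions matched by version, where Tead3 was the gene left.

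**Figure D4:**
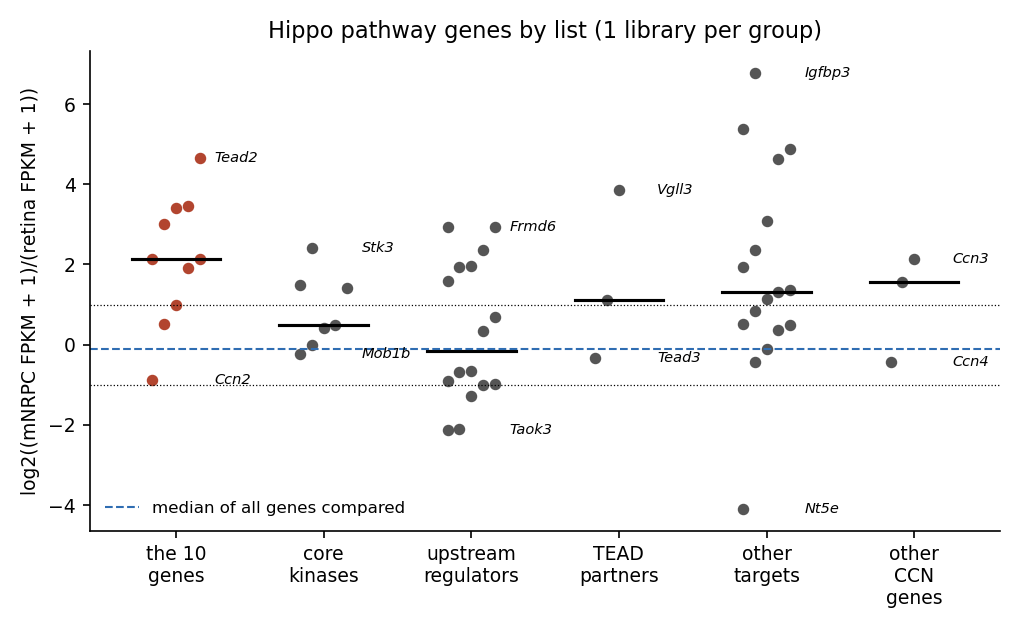
log2((mNRPC FPKM + 1)/(retina FPKM + 1)) of each gene compared, by list, with the 10 genes in red, the list median as a black bar, the median of all genes compared (−0.12) as a dashed line and dotted lines at −1 and 1. The 10 genes (median 2.14) and the other targets (1.31) lie mostly above the upper line, and upstream regulators (−0.16) lie on both sides.

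Of 18 other genes commonly used as YAP and TAZ targets 17 were compared, and 10 were counted as higher, 1 as lower and 6 lay between, with a median log2 ratio of 1.31. This median depended on the constant added and was 2.28 with 0.1. Of all genes compared, 24.5% were higher and 30.0% lower. At equal library sums 9 of the 17 were higher, beside 18.4% of all genes. This list shares Lats2 and Ptpn14 with the lists above. Igfbp3, a secreted binding protein of insulin-like growth factors, had 298 against 1.71 FPKM (log2 ratio 6.78). Axl, a receptor tyrosine kinase, was at 158 and 2.85 FPKM (5.37), Fjx1 at 49.4 and 0.726 FPKM (4.87), and Myof, the gene of myoferlin, had a log2 ratio of 4.62. Crim1, a transmembrane gene that binds BMPs, was at 93.0 and 10.1 FPKM (3.08). The lower gene was Nt5e, which encodes the ecto-5′-nucleotidase CD73, at 2.13 and 52.4 FPKM (−4.10). By flow cytometry, which measures protein and not RNA, the study reported CD73 on the surface of mNRPCs.

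Several of these genes are also active in fibroblasts and other mesenchymal cells, so 8 fibroblast genes were read beside them. Of these, 5 reached 1 FPKM in mNRPCs and 3 in retina, and their sum was 468 FPKM in mNRPCs and 112 in retina. Most of the mNRPC sum came from Col3a1 at 450 FPKM, and most of the retina sum from Thy1 at 106 FPKM, a gene that ganglion cells also express. Of the 6 fibroblast genes compared, 2 were counted as higher in mNRPCs, Col3a1 and Postn, 1 as lower and 3 lay between. Among all genes 24.5% were higher and 30.0% lower. The lower gene was Thy1, at 0.244 FPKM in mNRPCs. Col1a2 was at 0.0843 FPKM in mNRPCs against 0.952 in retina, and Lum was listed at 0 in both libraries. The part of mesenchymal expression in the level of Ccn1 and the other targets was not tested.

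Of the 4 remaining genes of the CCN family 3 were compared, with a median log2 ratio of 1.55. Of these, 2 were counted as higher and 0 as lower, beside 24.5% higher and 30.0% lower among all genes. Ccn3 was at 3.41 FPKM and Ccn5 at 1.93 FPKM in mNRPCs, both listed at 0 in retina. The median therefore depends on the constant added, and was 2.28 with 0.5 and 4.34 with 0.1. Ccn4, a target of Wnt signaling, had 6.53 against 9.10 FPKM (log2 ratio −0.42), and Ccn6 was listed at 0 in both. In retina the detected CCN genes were therefore Ccn1, Ccn2 and Ccn4, with Ccn2 the highest, and in mNRPCs Ccn1 was the highest of 5.

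**Figure D5:**
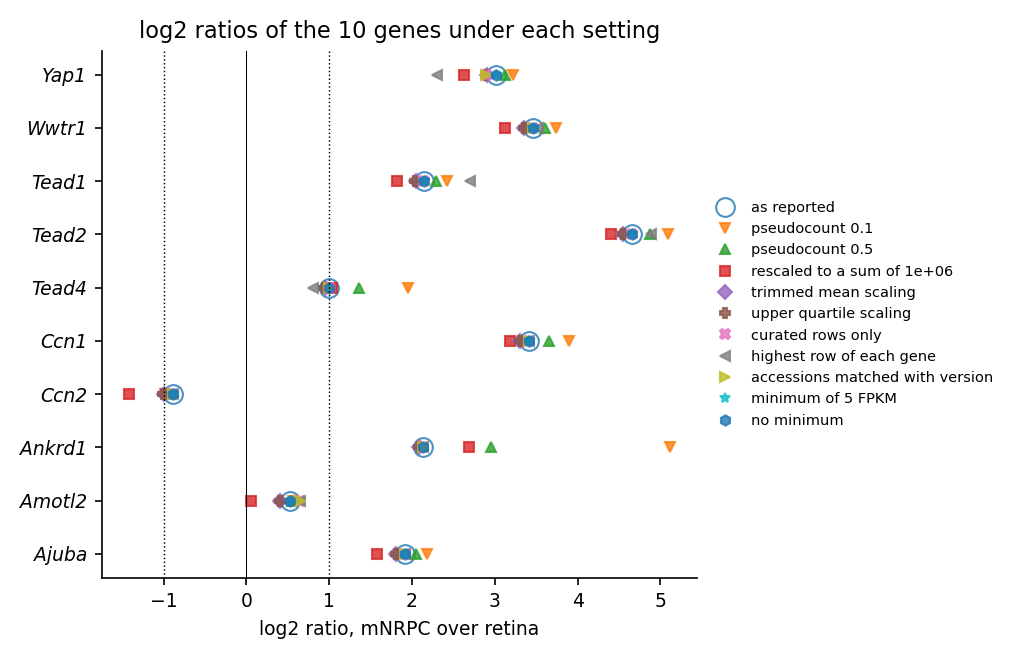
log2 ratio of mNRPC over retina for the 10 genes as reported (open circles) and under 10 alternative settings of pseudocount, scaling, rows and filter (filled symbols), with dotted lines at −1 and 1. No symbol is on the other side of 0 from its open circle, which the pseudocounts and the filter could not bring about. Ankrd1 spreads most, from 2.08 to 5.12, Tead4 straddles the upper line and Ccn2 reaches the lower one.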

How the data were processed

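Transcript levels of 1 mNRPC and 1 retina library were taken from a table of FPKM values per RefSeq transcript that the authors deposited. The study's methods name Bowtie 2 and eXpress, while the submitters' processing notes name TopHat2 2.0.10 and the build GRCm38.p3, and which program made these values was not settled. Of 106754 transcript rows, 74283 (69.6%) were matched to gene symbols by accession without version, with a RefSeq table of GRCm38.p6 and then GENCODE release 21. Rows of a gene were summed, and fragments on unmatched predicted rows are missing from the sums. Values below 1e-06 were read as 0. Ratios were log2 of FPKM + 1, genes needed 1 FPKM in either library, and a log2 ratio of 1 (2-fold) was the threshold. The depth was estimated from the value of 1 fragment on transcripts of at least 1500 bases, which was tested on simulated data, and gave 6.69e+06 and 5.08e+06 fragments. Intervals are 95% and cover counting error only, and 3 fragments were taken as the floor. All 10 genes are named. Of the wider lists, fixed genes and up to 6 with the largest log2 ratio per list are named. The genes and lists were chosen with earlier results of these data known. In all, 11 alternatives were run. Python 3.11.15, numpy 2.4.6, pandas 2.3.3, scipy 1.17.1 and matplotlib 3.10.9 were used.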

Additional observations from a re-analysis of the deposited data

How the results depend on the processing

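No paired analysis was possible because there was a single mNRPC library and a single retina library. No log2 ratio of the 10 genes changed sign under the alternatives, but several of these could not change it. A different pseudocount cannot change the sign of a ratio. The minimum FPKM cannot change a gene's own ratio. Nor can the choice of rows for genes with 1 transcript row, or curated rows alone for genes whose rows are all curated. The number of the 10 genes lower in mNRPCs went from 0 to 1 (Ccn2) after rescaling to a sum of 1e+06 and with upper quartile scaling. Of all genes compared, 30.0% were lower as deposited, 42.4% after this rescaling and 32.1% with upper quartile scaling. The number of the 10 genes higher, 8 as reported, was 7 with the highest transcript row alone, with trimmed mean scaling and with upper quartile scaling. The shares of all genes higher were then 27.4%, 22.7% and 22.6%. It was 6 of 8 with a minimum of 5 FPKM (26.9% of all genes) or with accessions matched by version (26.0%), and 6 of 10 with a log2 threshold of 2 (11.2%). The median log2 ratio of the 10 genes, 2.14 as reported, became 2.82 with a pseudocount of 0.1, 2.62 with 0.5 and 2.58 with a minimum of 5 FPKM, which leaves fewer genes. With the highest transcript row of each gene alone, Tead2 held 81.5% and Tead3 4.22% of the TEAD sum in mNRPCs. With accessions matched by version, Tead3 was the TEAD partner left, so the median of that list reversed from 1.12 to −0.33, and it was 0.20 with curated rows alone. The median of the upstream regulators, −0.16 as reported, changed sign with curated rows alone (0.42), with the highest row of each gene (0.48) and with accessions matched by version (0.86), and was −0.66 after rescaling. Rescaling to a sum of 1e+06 moved the median of all genes by −0.56, from −0.12 to −0.68. At the retina depth, Ankrd1 under 0.292 FPKM could not be told from 0, and Tead4 rested on 4.76 fragments.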
